A study of Homo sapiens with 2 samples.

Results

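The genes described here are 10 known outputs of ERK signalling, called the ERK feedback genes below. They are the transcription factor genes ETV1, ETV4 and ETV5, and genes whose proteins act back on the pathway. The latter are the Sprouty genes SPRY1, SPRY2 and SPRY4, the Sprouty-related genes SPRED1 and SPRED2, and the phosphatase genes DUSP4 and DUSP6. The 10 genes were chosen by symbol, with their values in these libraries already known. All 10 were found among the 11511 genes with a value in the deposited table. The tested library came from Hep3B cells given A4368, a compound that the labels give by code alone, for 24 h at 25 µM, and its control library came from untreated Hep3B cells. Both used Hep3B, an established human hepatocellular carcinoma line from a commercial collection, grown in DMEM with serum. RNA-seq measured expression in 1 library of each kind.

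With 1 library per condition there is no spread between cultures, so no value carries an error, no difference has a replicate check and no p-value was computed. Levels are in FPKM, which counts fragments over the length of the transcript and the size of the library, so that levels can be compared between genes. The read depth is unknown, and no counting interval could be given. The median gene stood at 13.5 FPKM in the A4368 library and 13.3 FPKM in the control library. All 10 hepatocyte and hepatoma markers examined had values, among them ALB, the albumin gene, at 8930 FPKM with A4368 and 9183 FPKM in the control, and AFP, the alpha-fetoprotein gene, at 295 FPKM with A4368 and 368 FPKM in the control. Lower values were held by 8 of these markers with A4368, against 48.0% of the 11238 genes whose mean reached 1 FPKM. The median log2 ratio of the markers was -0.08. AHSG, the fetuin-A gene, had the lowest log2 ratio of them, -0.56, at 586 FPKM with A4368 and 864 FPKM in the control. FGB, a fibrinogen chain gene, stood at 119 FPKM with A4368 and 143 FPKM in the control. Of 14 markers of leukocytes, endothelium and fibroblasts only LYZ and CD14 had values, with a summed level of 11.9 FPKM with A4368 and 20.1 FPKM in the control. LYZ, which encodes lysozyme, made up most of that sum, at 9.48 FPKM with A4368 and 17.6 FPKM in the control. The leukocyte marker PTPRC, the endothelial marker PECAM1 and the fibroblast marker COL1A1 had no value in the table. The part of these markers in the results was not tested.

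In the ERK pathway, growth factors activate receptor tyrosine kinases at the cell surface, which load RAS with GTP and start the kinase relay of RAF, MEK and ERK. Active ERK enters the nucleus and raises transcription of genes that include the members described here. Sprouty and SPRED proteins then restrain the steps between receptor and RAF, and DUSP4 and DUSP6 remove phosphate from MAP kinases, so that the pathway limits its own output. ETV1, ETV4 and ETV5 form the PEA3 group of ETS transcription factors and carry the signal on to further genes. In hepatocytes and many hepatomas the hormone FGF19 signals into this pathway through the receptor FGFR4 and the coreceptor beta-klotho.

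Promoter windows from RefSeq, on build GRCh38.p14, were matched by symbol for 7 of the 10 genes, with 16 annotated start sites. ETV4, ETV5 and DUSP4 were not matched. Each window runs from 250 bases before to 50 bases after the start. Below, 5 are shown to let the genes with lower values with A4368 be set beside ETV1, whose levels were nearly equal: those of SPRY1 (chr4:123398136-123398435, plus strand), SPRY2 (chr13:80341077-80341376, minus strand), SPRY4 (chr5:142324198-142324497, minus strand), DUSP6 (chr12:89352452-89352751, minus strand) and ETV1 (chr7:13991376-13991675, minus strand). Capitals mark the letters CCGGAA on either strand, a longer string than GGAA, the core bound by ETS factors. GGAA alone was not searched or marked, and counting either strand it does occur in the windows shown for SPRY4 and DUSP6.
SPRY1: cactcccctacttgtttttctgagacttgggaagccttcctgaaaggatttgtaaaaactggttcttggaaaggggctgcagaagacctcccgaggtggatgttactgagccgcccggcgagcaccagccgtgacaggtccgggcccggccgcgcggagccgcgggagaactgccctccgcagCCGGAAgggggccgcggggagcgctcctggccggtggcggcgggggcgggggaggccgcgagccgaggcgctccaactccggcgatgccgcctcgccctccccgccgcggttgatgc
SPRY2: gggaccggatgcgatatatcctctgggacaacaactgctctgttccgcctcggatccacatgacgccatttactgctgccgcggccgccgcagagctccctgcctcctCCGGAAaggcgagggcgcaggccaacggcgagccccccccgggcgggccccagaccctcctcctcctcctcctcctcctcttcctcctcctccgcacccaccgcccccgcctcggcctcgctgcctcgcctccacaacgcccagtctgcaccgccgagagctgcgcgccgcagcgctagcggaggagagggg
SPRY4: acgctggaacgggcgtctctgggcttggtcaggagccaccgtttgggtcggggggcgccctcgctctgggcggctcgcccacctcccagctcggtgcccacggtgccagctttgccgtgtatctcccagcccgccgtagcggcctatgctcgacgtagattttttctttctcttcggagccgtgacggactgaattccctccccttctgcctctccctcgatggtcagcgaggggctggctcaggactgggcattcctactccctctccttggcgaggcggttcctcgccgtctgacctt
DUSP6: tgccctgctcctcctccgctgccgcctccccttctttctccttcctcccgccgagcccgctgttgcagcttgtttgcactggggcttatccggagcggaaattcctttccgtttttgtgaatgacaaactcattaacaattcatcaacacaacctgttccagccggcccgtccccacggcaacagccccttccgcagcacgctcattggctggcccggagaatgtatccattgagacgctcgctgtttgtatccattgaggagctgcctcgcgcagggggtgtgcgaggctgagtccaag
ETV1: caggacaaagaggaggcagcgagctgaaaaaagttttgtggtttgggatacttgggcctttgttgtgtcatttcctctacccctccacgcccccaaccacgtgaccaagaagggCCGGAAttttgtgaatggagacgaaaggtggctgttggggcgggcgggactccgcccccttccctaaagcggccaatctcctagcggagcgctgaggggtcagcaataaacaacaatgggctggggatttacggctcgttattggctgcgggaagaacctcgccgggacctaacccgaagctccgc

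The ETS letters CCGGAA occurred once in the windows shown for SPRY1, SPRY2 and ETV1 and were not in those for SPRY4 and DUSP6. For SPRY1, SPRY2 and ETV1, which have several start sites, the window shown is one that holds the letters, picked for that after the search. Over all start sites kept, 5 of the 16 windows held them, 3 of these being windows of ETV1, some of which overlap, and 17.2% of all 35116 promoter windows in the same table did. The shares of all windows include chromosome 8, which was left out for the members. The AP-1 letters TGANTCA were in 1 of the 16 windows, of SPRED2, against 7.71% of all windows. TGACGT, part of the cyclic AMP response element and searched on both strands, was in 1 of the 16, another window of SPRED2, against 7.98% of all windows. The GC box letters GGGCGG, on either strand, were in 10 of the 16 windows, against 45.0% of all windows. A CArG box, the serum response factor site, was in 0 of the 16, against 1.29% of all windows. A match is a run of letters in the reference and not a measured binding site.

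With A4368, 9 of the 10 ERK feedback genes had lower values and ETV1 had a slightly higher one. The summed level of the 10 genes was 84.4 FPKM with A4368 and 119.9 FPKM in the control, or 70.4% of the control. The library ratio was taken as log2((A4368 FPKM + 1)/(control FPKM + 1)), a scale on which low genes move less than their plain ratio. A fold such as 1.80-fold is the plain ratio of the levels. Its median over the 10 genes was -0.52, against 0.01 over the 11238 genes whose mean reached 1 FPKM, a level that all 10 members reached. Values below 0 were held by 48.0% of those 11238 genes. In whole-culture RNA, a smaller share of cells with a transcript and less of it per cell cannot be told apart.

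Of the members, 4, namely ETV4, DUSP4, SPRY1 and SPRY4, were lower by at least 1.5-fold on the log2(FPKM + 1) scale, a limit passed in that direction by 2.12% of the 11238 genes. In the other direction the limit was passed by 0 members and by 1.08% of the genes. The 2-fold limit was passed by ETV4 and DUSP4, which were lower, against 0.436% of all genes, and 0 members were higher by that limit, against 0.116% of all genes. Because low genes vary more, the limit was also read by level. Among the 2476 genes with a mean of 1 to 5 FPKM, 3.96% were at least 1.5-fold lower, and the 4 members there were DUSP4 and SPRY4, past the limit, and ETV5 and SPRED1, within it. Among the 5626 genes at 5 to 30 FPKM, 1.81% were at least 1.5-fold lower, and of the 6 members there ETV4 and SPRY1 passed. The members were chosen with these ratios known, so the shares give the background and nothing is read from the contrast. When the libraries were brought to a common sum that left out the 50 highest genes (the rescaling), the same limit was passed by 160 higher and 197 lower genes, so that 44.8% of those past it were higher, against 121 higher and 238 lower, or 33.7% higher, as deposited.

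**Figure D1:**
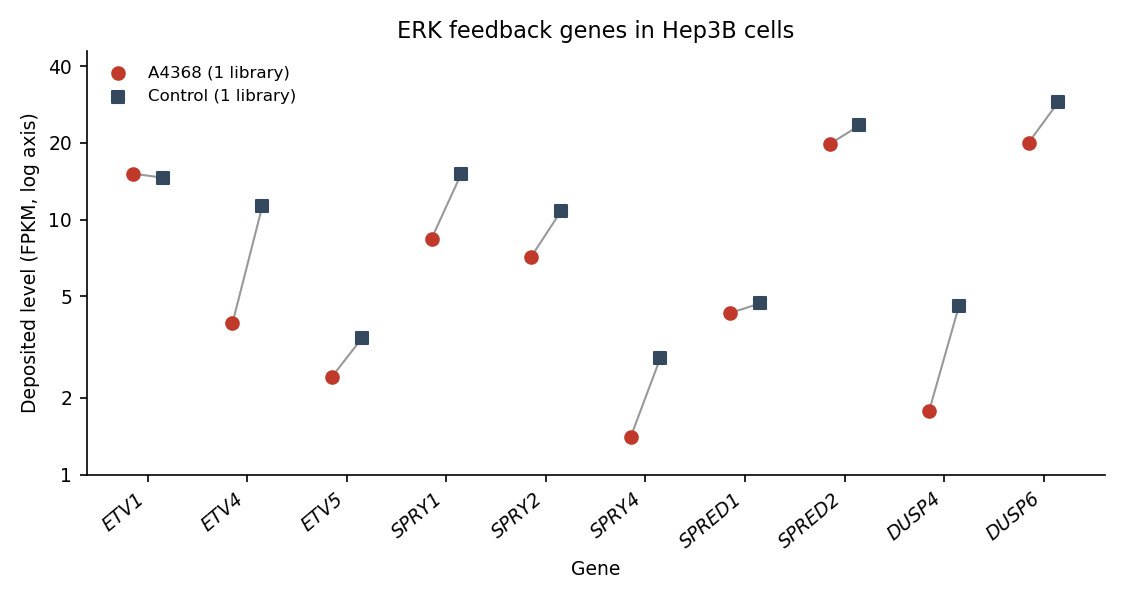
Deposited level in FPKM (log axis) of each ERK feedback gene in the A4368 library (circles) and the Control library (squares), 1 library each, joined by a line for each gene. The circle lies below the square for 9 genes, with the steepest line for ETV4 (3.93 FPKM with A4368, 11.3 FPKM in Control), and slightly above it for ETV1 (15.2 FPKM with A4368, 14.6 FPKM in Control).

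The PEA3 group split. ETV4, a factor of branching growth and tumour invasion, stood at 3.93 FPKM with A4368 and 11.3 FPKM in the control. That is 34.8% of the control level and a log2 ratio of -1.32, which ranked 11 from the lowest among the 11238 genes. ETV5, its close relative, stood at 2.42 FPKM with A4368 and 3.42 FPKM in the control, 1.41-fold lower, with a log2 ratio of -0.37. ETV1 stood at 15.2 FPKM with A4368 and 14.6 FPKM in the control, a log2 ratio of 0.05. The members of this one group thus covered the whole range of the 10 genes, from the lowest ratio to the only one above 0.

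Because ETV4 was lower and ETV1 was not, the make-up of the group differed between the libraries. ETV1 supplied 70.5% of the summed PEA3 level with A4368 and 49.8% in the control. ETV4 supplied 18.3% with A4368 and 38.5% in the control, while the share of ETV5 was 11.3% with A4368 and 11.7% in the control. In level, ETV4 was at 0.26 times ETV1 with A4368 and at 0.77 times ETV1 in the control. The 3 genes together stood at 21.5 FPKM with A4368 and 29.3 FPKM in the control.

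All 3 Sprouty genes had lower values with A4368, by 1.51-fold to 2.05-fold. Sprouty proteins dampen signalling from receptor tyrosine kinases to RAS and RAF. SPRY1 stood at 8.42 FPKM with A4368 and 15.2 FPKM in the control, 1.80-fold lower, with a log2 ratio of -0.78. SPRY2 stood at 7.14 FPKM with A4368 and 10.8 FPKM in the control, 1.51-fold lower as a plain ratio. With the pseudocount its log2 ratio was -0.53, which lay within the 1.5-fold limit of 0.58. SPRY4, the lowest of the 10 genes in both libraries, stood at 1.40 FPKM with A4368 and 2.87 FPKM in the control, 2.05-fold lower, with a log2 ratio of -0.69. The summed Sprouty level was 17.0 FPKM with A4368 and 28.8 FPKM in the control, or 58.8%, the smallest such share of the 4 families. SPRY1 supplied 49.6% of it with A4368 and 52.6% in the control, so that the mix of the family differed little.

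As family sums, the SPRED genes were the nearest to their control level, at 85.7%. SPRED proteins carry the RAS inhibitor neurofibromin to the membrane. SPRED2 stood at 19.8 FPKM with A4368 and 23.4 FPKM in the control, 1.18-fold lower, with a log2 ratio of -0.23. SPRED1 stood at 4.31 FPKM with A4368 and 4.69 FPKM in the control, 1.09-fold lower, with a log2 ratio of -0.10. Neither passed the 1.5-fold limit, and a lower SPRED1 ratio was held by 29.0% of the 11238 genes. NF1, the neurofibromin gene, was at 12.3 FPKM with A4368 and 14.2 FPKM in the control, with a log2 ratio of -0.20; it was named here as the partner of the SPRED proteins after its value was seen.

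Both phosphatase members were lower, at very different levels. DUSP6, a cytoplasmic phosphatase selective for ERK, was the highest of the 10 genes in both libraries, at 20.1 FPKM with A4368 and 29.0 FPKM in the control. Its log2 ratio was -0.51, within the 1.5-fold limit. DUSP4, a nuclear MAP kinase phosphatase, stood at 1.78 FPKM with A4368 and 4.59 FPKM in the control, 2.58-fold lower, with a log2 ratio of -1.01. DUSP6 was at 11.3 times the level of DUSP4 with A4368 and at 6.32 times in the control. In absolute terms (A4368 minus control), DUSP6 had the largest difference among the members, -8.91 FPKM, followed by ETV4 at -7.38 FPKM and SPRY1 at -6.75 FPKM.

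In order of level with A4368, the genes ran from DUSP6 through SPRED2, ETV1, SPRY1, SPRY2, SPRED1, ETV4, ETV5 and DUSP4 to SPRY4. The order in the control was DUSP6, SPRED2, SPRY1, ETV1, ETV4, SPRY2, SPRED1, DUSP4, ETV5 and SPRY4. ETV4 was in place 7 with A4368 and place 5 in the control, and no other gene differed by more than 1 place. Without replicates, no neighbours in these orders can be said to differ.

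**Figure D2:**
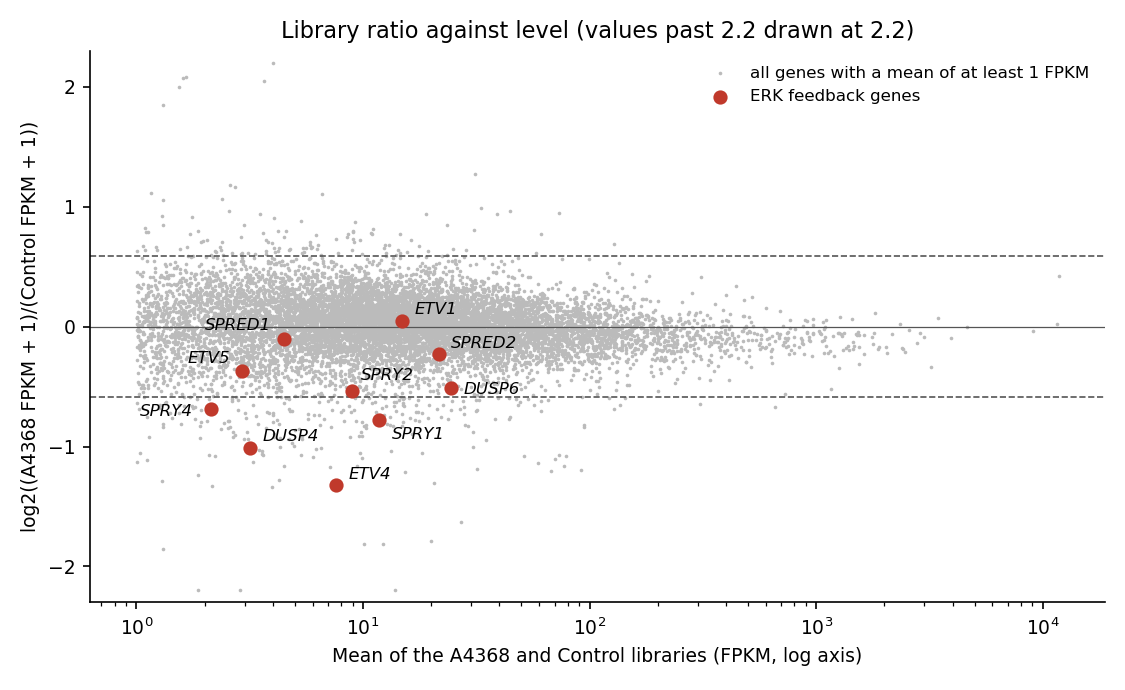
log2((A4368 FPKM + 1)/(Control FPKM + 1)) against the mean level of both libraries (FPKM, log axis) for 11238 genes (grey), with the 10 ERK feedback genes in red and dashed lines at 1.5-fold. ETV4 (-1.32), DUSP4 (-1.01), SPRY1 (-0.78) and SPRY4 (-0.69) lie below the lower line, SPRY2 (-0.53) and DUSP6 (-0.51) just above it, and ETV1 (0.05) close to 0.

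Reads of some members can be shared with neighbours, and the strandedness of the libraries is not given in the sources used here. In GENCODE release 29, 38.5% of the distinct 31-base words of DUSP6 are shared, mostly with AC024909.2, an annotated antisense gene over the same locus. AC024909.2 had no value in the table. Without knowing the strandedness, reads over the shared words cannot be assigned to either gene here. ETV4 overlaps DHX8, a helicase gene on the opposite strand, and shares 1.63% of its words with other genes. DHX8 stood at 15.6 FPKM with A4368 and 15.7 FPKM in the control, and the part of reads from DHX8 in the value of ETV4 was not tested. The other 8 members shared at most 2.78% of their words with other genes, the value for ETV5. SPRY4 and ETV5 overlap annotated antisense genes, none of which had a value in the table. ETV5 also overlaps DGKG, a protein-coding gene on the same strand with no value in the table, which is among the genes sharing most of its words.

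The genes nearest to SPRY1, SPRY4 and DUSP4 were found by distance in the plane of log2(FPKM + 1) in the 2 libraries, which with 1 library of each kind means only a like level and ratio. KIRREL and CEACAM1 were nearest to SPRY1, at distances of 0.07 and 0.10. SLC16A5 and TIMP4 were nearest to SPRY4, at 0.04 and 0.05, and CBLN2 and CER1 to DUSP4, at 0.05 and 0.09.

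The remaining genes of the pathway were read by role, with members of each list counted where their mean was at least 1 FPKM. Over all 11238 genes, 48.0% had values below 0, 2.12% were at least 1.5-fold lower and 1.08% at least 1.5-fold higher. These shares are the background for each list. The lists were chosen with earlier results known, so nothing is read from the contrast. Of 15 other ERK target genes, 13 had lower values, against 48.0% of all genes, and 3 were lower by at least 1.5-fold, against 2.12%. Their median log2 ratio was -0.25, or -0.14 with a pseudocount of 5. Those past the limit were IER3, an early response gene that was 2.13-fold lower, EPHA2 and PHLDA1. EPHA2, an ephrin receptor gene, stood at 16.2 FPKM with A4368 and 27.9 FPKM in the control. PHLDA1, which encodes a pleckstrin homology domain protein, stood at 21.3 FPKM with A4368 and 34.5 FPKM in the control. EGR1 and JUNB, immediate early transcription factor genes named as the exceptions, had the values above 0, with log2 ratios of 0.16 and 0.02. EPHA4, FOSL1, FOS, DUSP5, HBEGF, TGFA and VGF had no value in the table and were not analysed here.

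The rest of the DUSP family differed less than DUSP4. Of 17 DUSP genes with values, 12 were lower, against 48.0% of all 11238 genes. DUSP4 alone passed the 1.5-fold limit, which 2.12% of all genes passed as lower. The 15 that are not members had ratios between -0.42, for DUSP1, and 0.26, for DUSP7, with a median of -0.18. Of these, 6 are MAP kinase phosphatases, of which 5 were lower. DUSP1, an early response phosphatase acting mainly on the stress kinases, stood at 22.1 FPKM with A4368 and 29.9 FPKM in the control. DUSP9, an ERK phosphatase related to DUSP6 and the most abundant of the 6, stood at 74.8 FPKM with A4368 and 81.3 FPKM in the control. DUSP16 and DUSP8, which act mainly on the stress kinases, had log2 ratios of -0.28 and -0.32.

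Of 11 ETS factors outside the PEA3 group, 7 had lower values, against 48.0% of all 11238 genes. Among the 11, 0 passed the limit, against 2.12% of all genes lower and 1.08% higher, and the median was -0.17. ETV2 and ETV6 had means under 1 FPKM and were not counted. ETV2 stood at 1.35 FPKM with A4368 and 0.392 FPKM in the control, a log2 ratio of 0.76. ETV6 stood at 0.769 FPKM with A4368 and 1.08 FPKM in the control. ETS2, which is itself activated by ERK, stood at 24.5 FPKM with A4368 and 35.3 FPKM in the control, a log2 ratio of -0.51. ELK3, a partner of serum response factor, was 1.39-fold lower and the epithelial factor gene ELF3 1.25-fold lower. ERF, a repressor that ERK exports from the nucleus, was the most abundant of the 11, at 61.2 FPKM with A4368 and 72.7 FPKM in the control.

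The list of other inhibitors held no gene past the limit. Of 13 other inhibitors of receptor and RAS signalling, 9 had lower values (5 once rescaled), against 48.0% of all 11238 genes as deposited. The median of the inhibitors was -0.02. That median became 0.03 after the rescaling and -0.17 among those whose mean reached 5 FPKM. The lowest of them was CBLB, a ubiquitin ligase gene, with a log2 ratio of -0.29, followed by the RAS GTPase activating gene RASAL2 at -0.26. ERRFI1, a feedback inhibitor of the EGF receptor, stood at 39.5 FPKM with A4368 and 46.7 FPKM in the control. PEBP1, which encodes a RAF binding protein, was the most abundant, at 306 FPKM with A4368 and 337 FPKM in the control. SPRY3, SPRED3 and IL17RD had no value in the table and were not analysed here.

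The cascade itself lay close to level. Of 22 adaptors, scaffold proteins and kinases of the RAS to ERK cascade, counted with the ERK-activated kinases RPS6KA1 and RPS6KA3, 11 were lower (9 once rescaled) and 11 higher, with a median of -0.01 that became 0.04 after the rescaling. RPS6KA1, an ERK-activated kinase gene, was past the limit as the only one, at 6.84 FPKM with A4368 and 4.10 FPKM in the control, 1.67-fold higher. SOS1, a RAS exchange factor gene, had a log2 ratio of 0.39 and MAPK3, which encodes ERK1, one of -0.38, at 25.1 FPKM with A4368 and 32.9 FPKM in the control. MAP2K2, which encodes MEK2, was the most abundant, at 134 FPKM with A4368 and 119 FPKM in the control.

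Of 11 receptor genes, 8 had lower values (5 once rescaled), against 48.0% of all 11238 genes as deposited. The receptor median of -0.04 became 0.01 with the rescaling. FGFR2 alone passed the limit, at 11.5 FPKM with A4368 and 18.6 FPKM in the control. FGFR4, the most abundant of them and the receptor of FGF19, stood at 151 FPKM with A4368 and 155 FPKM in the control. FGFR1 had a log2 ratio of 0.26 and ERBB2 one of -0.24. Of 9 ligand genes, 8 were lower, against 48.0% of all genes, and 0 passed the limit, with a ligand median of -0.24. This median was -0.10 with a pseudocount of 5 and -0.11 among ligands whose mean reached 5 FPKM, of which 3 were lower. FGF19 stood at 3.35 FPKM with A4368 and 5.16 FPKM in the control, a log2 ratio of -0.50. EREG, the epiregulin gene, had one of -0.31 and PDGFB, a platelet-derived growth factor gene, one of -0.27. IGF2, the most abundant ligand, stood at 219.0 FPKM with A4368 and 218.3 FPKM in the control. EREG and AREG are counted both as ligands and as ERK targets.

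**Figure D3:**
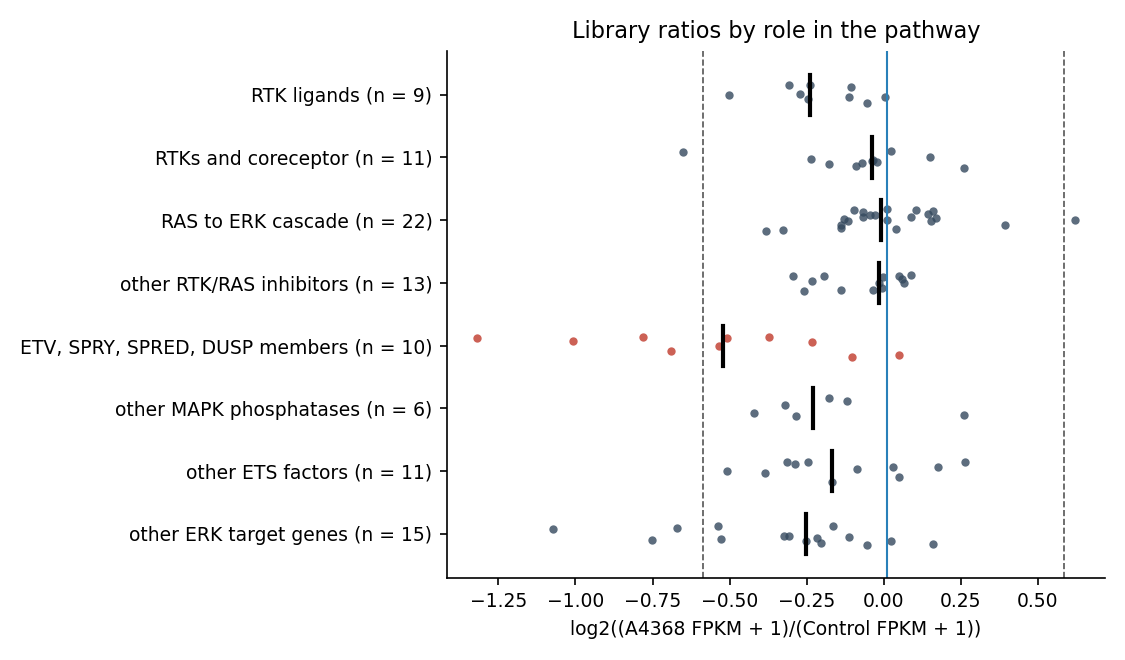
log2((A4368 FPKM + 1)/(Control FPKM + 1)) of each gene (points) by role in the pathway, with list medians as black bars, dashed lines at 1.5-fold and a blue line at the median of all 11238 genes (0.01). The ERK feedback members, chosen with their values known, have a median of -0.52, the other ERK targets -0.25, and the cascade -0.01.

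The members kept their side of 0 under each of the 6 ways of computing a ratio that were tried: as reported, pseudocounts of 0.1 and 5, both scalings and a correction for GC content and length. ETV4 ranged from -1.50 to -0.87 over the alternatives and SPRY1 from -0.84 to -0.59. The low genes moved most with the pseudocount, SPRY4 from -0.99 to -0.30 and DUSP4 from -1.32 to -0.50, so that both lay within the limit at a pseudocount of 5. SPRY2 reached -0.59, past the limit, at a pseudocount of 0.1. ETV1 stayed between 0.01 and 0.10.

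**Figure D4:**
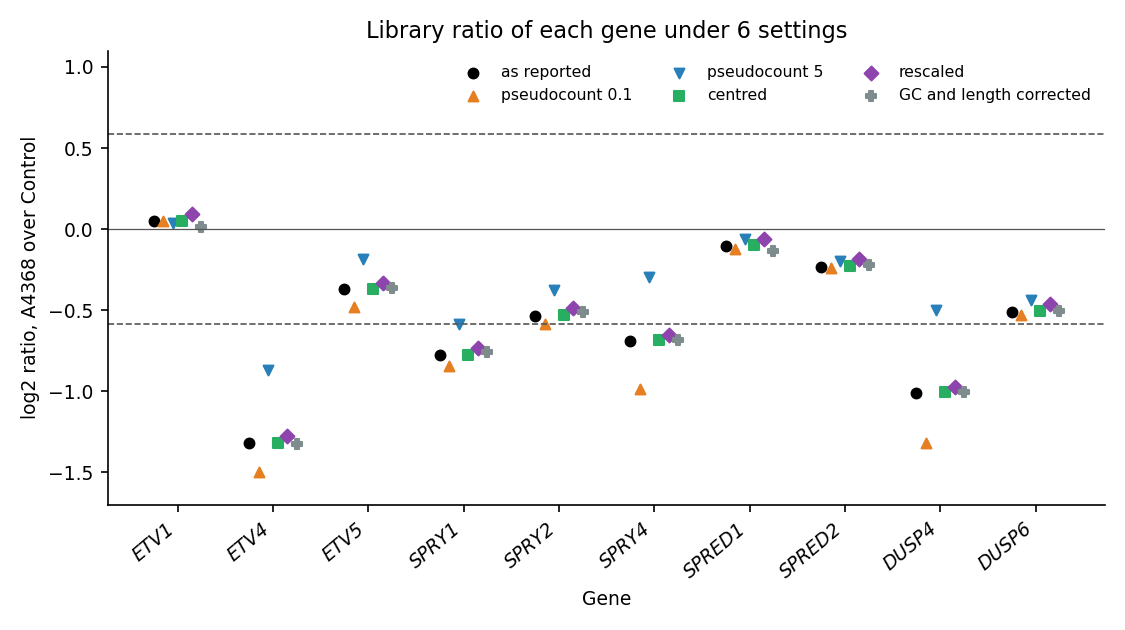
log2 ratio, A4368 over Control, of each ERK feedback gene under 6 settings (symbols), with dashed lines at 1.5-fold. ETV4 and SPRY1 lie below the lower line under all 6, SPRY4 and DUSP4 under all but a pseudocount of 5, and ETV1 lies above 0 under all 6.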

How the data were processed

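RNA-seq was analysed from 1 library of Hep3B cells treated with A4368 and 1 of untreated Hep3B cells. The authors deposited 1 table of gene symbols with a value per library. The header gives no unit. Since Cufflinks appears in the submitters' processing notes, beside Bowtie2 2.2.3, TopHat2 2.0.12 and build hg19, the deposited values were taken to be FPKM. The sources used here give neither the annotation nor any filter, but no gene had a mean under 0.496 FPKM. Of 24302 lines, 12791 held no value. No counts can be recovered, so depth is unknown.

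Ratios were log2((A4368 FPKM + 1)/(control FPKM + 1)) for genes whose mean reached 1 FPKM (11238 kept, 273 removed). With 1 library per group nothing was tested. Members and lists were chosen with earlier results of these data known. Genes were named as all members, then per list the 3 largest absolute ratios and the highest mean, plus the 2 genes nearest each member past 1.5-fold; others are named as exceptions, partners or missing, and the genes nearest ETV4 are not reported here. Alternatives changed the pseudocount, filter, scaling and limit; the GC content and length correction (lowess, GENCODE 29 longest transcripts, 99.5% of genes matched) was added after seeing the data. Shared words were 31 bases on either strand. The counting was tested on simulated data. Python 3.11.15, numpy 2.4.6 and pandas 2.3.3 were used.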

Additional observations from a re-analysis of the deposited data

How the results depend on the processing

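The correction for GC content and length was chosen after seeing the data. The number of members lower by at least 1.5-fold, 4 as reported, was 2 with a pseudocount of 5 (ETV4 and SPRY1), 2 at a mean of at least 5 FPKM (ETV4 and SPRY1, with 4 members removed) and 2 at a 2-fold limit (ETV4 and DUSP4); it was 5 with a pseudocount of 0.1, and 4 without a filter, centred, rescaled or corrected for GC content and length. The member median stayed between -0.56 and -0.34. Over all genes, 238 lower and 121 higher as reported, the counts were 369 and 259 with a pseudocount of 0.1, 78 and 20 with 5, 140 and 58 with a minimum mean of 5 FPKM, and 49 and 13 at the 2-fold limit. The rescaling, which moved the median of all genes to 0.06, turned the medians of the other inhibitors (0.0306), the receptors (0.0127) and the cascade (0.0370) above 0. Beyond fewer genes being kept by the stricter filter, the cause was not tested. No replicate could be left out. No paired analysis was possible because each group has 1 library. The lack of counts and replicates limits every value, most of all for members under 5 FPKM.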
